A study of Mus musculus with 48 samples.

Results

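The genes described are 9 that encode proteins of the regulated secretory pathway of neurons: the granins Chga, Chgb, Scg2, Scg3, Scg5, Vgf and Pcsk1n, and the opioid peptide precursors Penk and Pdyn. They were matched by gene symbol to the Ensembl identifiers of the count files, and all 9 were found among the 48709 genes counted in each library. The genes were chosen by name with the read counts of these same libraries across the 8 groups in view, so their levels are a description and the adjusted p-values below, which come from fits over all genes, are not independent evidence. All 9 passed the filter on low counts in each comparison.

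The libraries come from male C57BL/6J mice, and the RNA was extracted with TRIZOL from whole tissue labelled as dentate gyrus (DG), the input region of the hippocampus. Fmn2-/- mice, which carry a constitutive deletion of the actin nucleator formin 2 and so lack it in all cells from development on, and wild-type Fmn2+/+ mice were sequenced at 3 months (5 Fmn2+/+ and 5 Fmn2-/- mice) and at 8 months (3 Fmn2+/+ and 5 Fmn2-/- mice). In a cross, all mice carried the APPPS1-21 transgenes, which express mutant human APP in neurons under a Thy1 promoter and lead to amyloid deposition. There, 7 mice of 3 months were labelled Fmn2-/-_APP and 9 were labelled Fmn2+/+ APP. A separate set held 6 APP and 6 wild-type mice of 4 months with intact Fmn2. The cross holds no mice without the transgenes.

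Levels are read counts scaled by edgeR's TMM method over all 46 mice and given as CPM, counts per 1000000 reads. The reads assigned to genes ranged from 6818809 to 43921030, and both extremes were 8-month Fmn2+/+ mice. The Fmn2 gene itself stood at 93.2 to 113 CPM in Fmn2+/+ and 23.004 to 28.1 CPM in Fmn2-/- mice of 3 months, and at 75.5 to 103.3 CPM and 20.9 to 27.3 CPM at 8 months. In the cross the Fmn2 count went against the labels: it was 84.2 to 103.7 CPM in the libraries labelled Fmn2-/-_APP and 19.2 to 24.2 CPM in those labelled Fmn2+/+ APP. Each direction given for the cross is therefore that of the labels only. In the 4-month set, whose titles name the prefrontal cortex (PFC) although the tissue field reads dentate gyrus, 8 markers of dentate granule cells summed to 278 to 383 CPM, against 1035 to 1897 CPM in all other mice, and 8 markers of cortical layers to 631 to 716 CPM, against 125 to 376 CPM.

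Granins are acidic proteins that aggregate in the trans-Golgi network and help to form dense-core vesicles, the organelles that store neuropeptides and release them upon calcium entry. Several of them are prohormones in turn. Chga and Chgb encode chromogranin A and B, Scg2 encodes secretogranin II, the precursor of secretoneurin, and Vgf encodes a neurotrophin-induced precursor of peptides such as TLQP-21. Scg3 encodes secretogranin III, which tethers chromogranin A to the vesicle membrane. Scg5 encodes 7B2, the chaperone and inhibitor of the prohormone convertase PC2, and Pcsk1n encodes proSAAS, the corresponding inhibitor of the convertase PC1/3. Penk is the precursor of the enkephalins and Pdyn that of the dynorphins. In the hippocampus, dynorphin is stored in granule cells and their mossy fibres, and enkephalins act mainly on delta and mu opioid receptors.

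In the mm10 annotation, Pcsk1n (ENSMUSG00000039278) spans chrX:7919822-7924410 on the plus strand, Chga (ENSMUSG00000021194) chr12:102554969-102565028 on the plus strand, and Vgf (ENSMUSG00000037428) chr5:137026392-137033351 on the plus strand. Chgb (ENSMUSG00000027350) spans chr2:132781278-132795079 on the plus strand and Scg2 (ENSMUSG00000050711) chr1:79434669-79440120 on the minus strand. The remaining genes are Scg3 (ENSMUSG00000032181, chr9:75643189-75684056, minus strand), Scg5 (ENSMUSG00000023236, chr2:113776362-113829121, minus strand), Penk (ENSMUSG00000045573, chr4:4133531-4138819, minus strand) and Pdyn (ENSMUSG00000027400, chr2:129686565-129699844, minus strand). All 9 are protein-coding. Exons of Pcsk1n share 135 bases with Eras and exons of Penk share 233 bases with A830012C17Rik, both on the opposite strand. The library kit does not mark strand, so reads on these bases cannot be assigned to one of the genes.

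Granin promoters are textbook targets of CREB, the transcription factor that binds the cyclic AMP response element TGACGTCA. Promoter sequences (RefSeq, GRCm38.p6, from 250 bases before to 50 bases after the start) were found for 7 of the 9 genes, all but Vgf and Penk. They are shown to place the elements that some of the members hold, and sequence was not used to choose the members. The full element was found in Scg2 and Chgb, and in 1.79% of 32851 mouse promoters. Its core TGACG, which also lies within the full element, was found in Scg2, Chgb, Chga, Scg3 and Scg5 and in 20.8% of all promoters. An AP-1 element, TGANTCA, was found in Pcsk1n (7.81% of all promoters), and the GC box CCCGCCCC in Pcsk1n and Chga (16.5%), in both on the reverse strand. The motif CCGGAAGC, present in 2.98% of all promoters, was found in none of the 7, and Pdyn, with 2 promoters, held none of the motifs. All motifs were searched on both strands. Capitals mark the motif in the following stretches, and positions count from the start used for the RefSeq promoter. That start can differ from the end of the gene span given above. For Chgb and Scg2 the gene span begins further upstream, so that their cyclic AMP response elements lie within it.
Scg2, cyclic AMP response element at -68, chr1:79440087-79440094, minus strand: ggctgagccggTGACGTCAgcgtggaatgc
Chgb, cyclic AMP response element at -72, chr2:132781570-132781577, plus strand: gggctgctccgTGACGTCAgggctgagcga
Chga, core of the element at -44, chr12:102554897-102554901, plus strand: gggcggtcctaTGACGtaatttcctgg
Pcsk1n, AP-1 element at -234, chrX:7919588-7919594, plus strand: tttcagcccacTGAGTCAatttcccttgt
Pcsk1n, GC box at -38, chrX:7919784-7919791, plus strand: taggagacagtGGGGCGGGagtggggggga
Chga, GC box at -91, chr12:102554850-102554857, plus strand: gctggaggtggGGGGCGGGaccccgaaggt
A match is a description of the letters and does not show that a factor binds there.

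Per kilobase of exon, Chgb had the highest mean of the 9 genes in 6 of the 8 groups, all but those of the cross, where Scg2 was higher. Its group means ran from 156 CPM per kb in the libraries labelled Fmn2+/+ APP to 449 CPM per kb in 3-month Fmn2+/+ mice. Scg2, Scg3 and Scg5 followed, with group means of 153 to 192 CPM per kb for Scg2 outside the 4-month set and 68.95 to 84.3 CPM per kb within it, 106.1 to 139.5 CPM per kb for Scg3 and 118 to 165 CPM per kb for Scg5. Chga lay at 33.4 to 52.2 CPM per kb. Pcsk1n (17.9 to 35.0), Penk (18.4 to 26.3) and Pdyn (9.19 to 17.5 CPM per kb) were lower. Vgf lay at 11.6 to 19.1 CPM per kb outside the 4-month set, and at 49.1 and 59.8 CPM per kb within it, above Chga (40.5 and 52.2 CPM per kb) in the same groups. In each group, Chga, Chgb, Scg2, Scg3 and Scg5 thus had a higher mean level per length than both opioid precursors. Together the 9 genes took between 0.148% and 0.259% of the reads of a mouse.

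**Figure D1:**
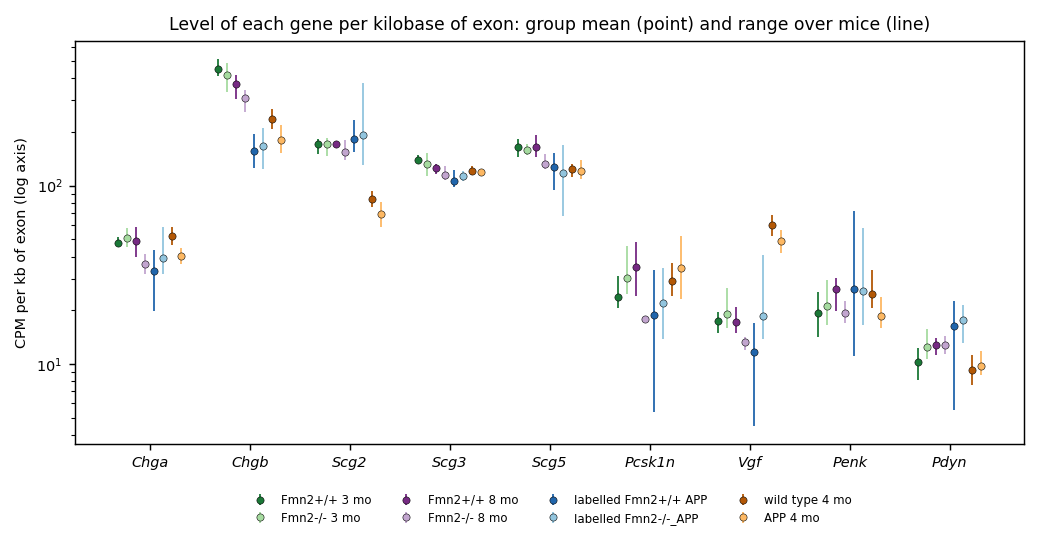
Level of each gene per kilobase of exon (CPM per kb, log axis) in the 8 groups, with the group mean as a point and the lowest and highest mouse as the ends of the line. The group means of Chgb run from 156 to 449 CPM per kb and those of Vgf from 11.6 to 59.8 CPM per kb, and Pdyn holds the lowest group mean, 9.19 CPM per kb.

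The order of the groups differed between the genes, and most neighbouring groups in each order overlapped. Chgb descended from 1230.3 ± 119 CPM (SD, n = 5) in 3-month Fmn2+/+ mice over 1144 ± 208 (n = 5) in 3-month Fmn2-/- mice, 1023 ± 159 (n = 3) and 844 ± 85.0 (n = 5) in Fmn2+/+ and Fmn2-/- mice of 8 months, 644 ± 61.4 (n = 6) and 492.6 ± 65.1 (n = 6) in wild-type and APP mice of 4 months, to 455 ± 91.1 (n = 7) and 426 ± 66.1 (n = 9) in the libraries labelled Fmn2-/-_APP and Fmn2+/+ APP. Each of its neighbouring groups overlapped. Vgf was set apart in the 4-month set: its mean was 178 ± 20.01 CPM (SD, n = 6) in wild-type and 146 ± 17.3 CPM (SD, n = 6) in APP mice, and 34.5 to 56.8 CPM in the other groups, without overlap with the next group. Scg2 went the other way, with 212 ± 16.04 CPM (SD, n = 6) in wild-type and 173 ± 21.9 CPM (SD, n = 6) in APP mice of 4 months and group means of 386 to 483 CPM elsewhere, again without overlap with the next group. The 4-month titles name another brain region, and region, age and set of mice cannot be told apart in these differences.

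For the remaining genes the groups lay closer together. Chga ranged from 144 ± 12.3 CPM (SD, n = 6) in wild-type mice of 4 months to 91.9 ± 18.1 CPM (SD, n = 9) in the libraries labelled Fmn2+/+ APP, and the only neighbours in its order that did not overlap were 3-month Fmn2+/+ mice (132 ± 6.47 CPM, n = 5) and APP mice of 4 months (112 ± 7.65 CPM, n = 6). Scg3 ranged from 382 ± 14.96 (SD, n = 5) to 290.5 ± 22.4 CPM (SD, n = 9) and Scg5 from 258 ± 37.5 (SD, n = 3) to 184 ± 52.7 CPM (SD, n = 7). Penk lay between 30.1 and 43.0 CPM in each group mean, and its highest CV within a group was 70.5%. Pdyn was highest in the cross, with 50.6 ± 7.71 CPM (SD, n = 7) and 47.0 ± 14.8 CPM (SD, n = 9), and lowest in wild-type mice of 4 months, with 26.5 ± 3.33 CPM (SD, n = 6). Neighbouring groups of Scg3, Scg5, Penk, Pdyn and Pcsk1n overlapped throughout. The group with the highest mean was the same for each of the 9 genes under 2 other scalings.

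**Figure D2:**
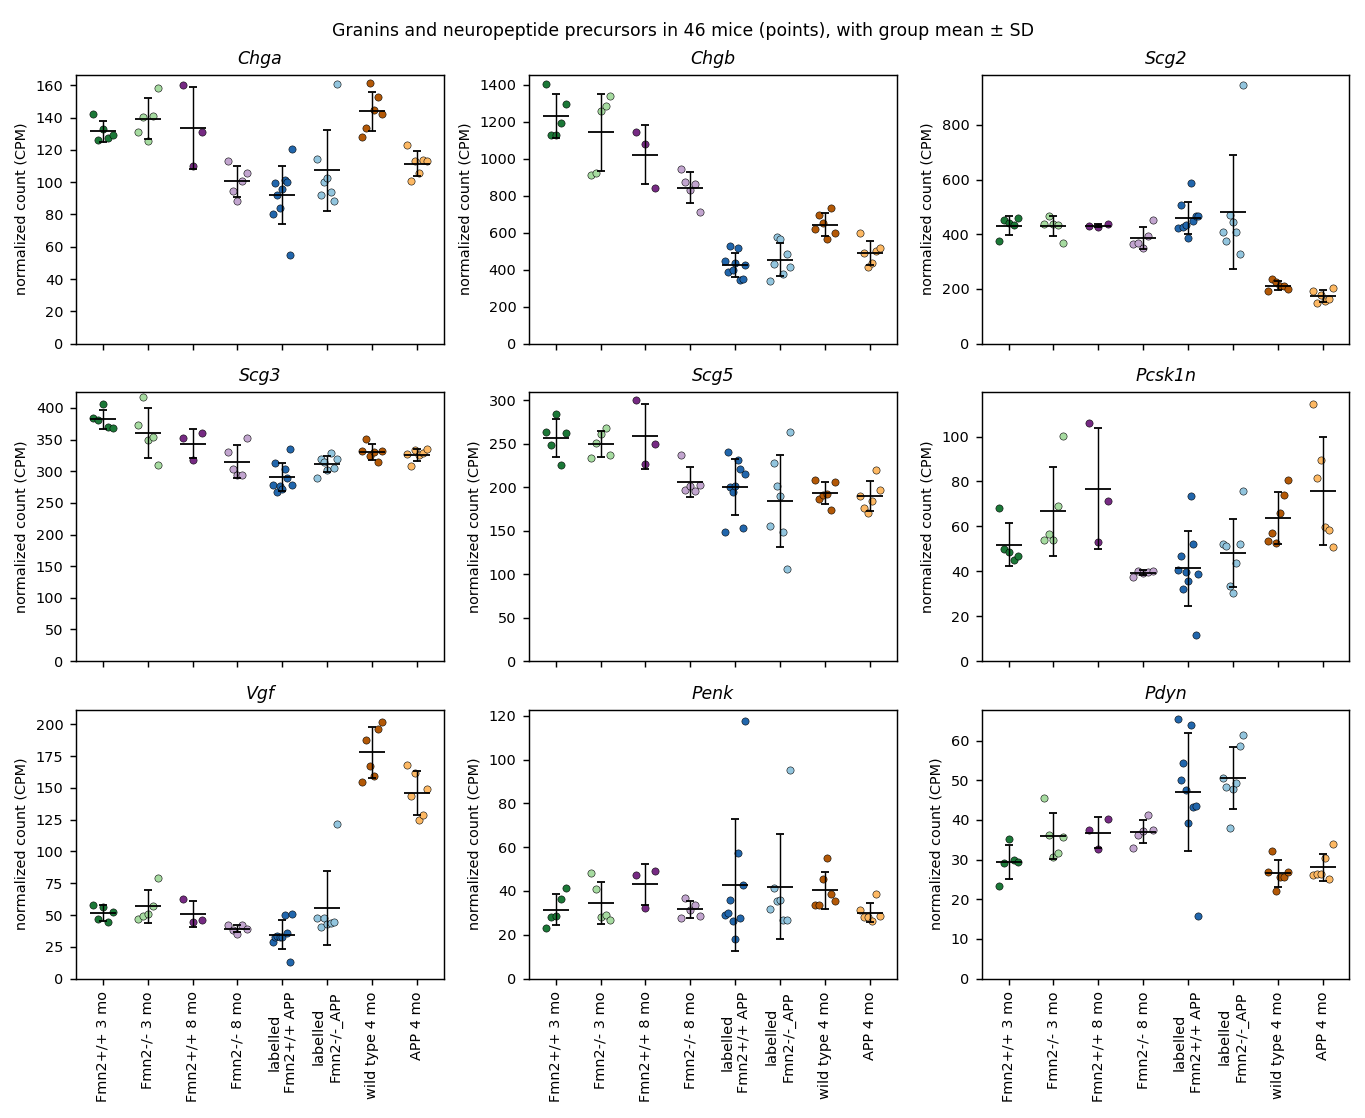
Normalized count (CPM, linear axis from 0) of each gene in each of the 46 mice, by group, with the mean and SD in black. Pcsk1n lies between 37.6 and 40.0 CPM in all 5 Fmn2-/- mice of 8 months, and Vgf lies at 125 CPM or above in all mice of the 4-month set and below that in all others.

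The comparison at 3 months asks which transcripts differ in young mice without Fmn2. No member was called by edgeR's quasi-likelihood test at an adjusted p under 0.05 with a log2 fold change of 0.25 or more in either direction, 1 (Pdyn) had an unadjusted p under 0.05, and DESeq2 called 0. Over all 16630 genes, 5 were called (0.0301%) and 1750 had an unadjusted p under 0.05 by edgeR. Pdyn was 23.3, 29.2, 35.3, 29.8 and 29.4 CPM in Fmn2+/+ and 45.5, 36.2, 30.8, 31.7 and 35.6 CPM in Fmn2-/- mice, and Pcsk1n was 68.4, 50.1, 48.8, 45.1 and 46.9 CPM in Fmn2+/+ and 53.9, 56.7, 53.7, 69.02 and 100.5 CPM in Fmn2-/- mice. For both genes the groups overlapped. The log2 fold change was 0.27 for Pdyn (SE 0.12, adjusted p = 0.463 by edgeR's quasi-likelihood test, Benjamini-Hochberg adjusted) and 0.34 for Pcsk1n (SE 0.18, adjusted p = 0.517 by the same edgeR test). The other 7 genes had log2 fold changes from -0.13 (Chgb) to 0.12 (Vgf). The median over the 9 genes was 0.06, and 4 of them were lower in Fmn2-/- mice, against a median of 0.00 and 48.9% lower over all genes tested. Lane and genotype nearly coincided at this age, lane 5 holding the Fmn2+/+ mice with 1 Fmn2-/- mouse, and lane 6 the remaining 4. Markers of the choroid plexus summed to 4263 CPM in Fmn2-/- replicate 4 and to at most 63.1 CPM in the Fmn2+/+ mice. The part of either in the members' values was not tested.

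The comparison at 8 months asks the same of middle-aged mice. Pcsk1n was the only member called. It stood at 106.1, 52.9 and 71.3 CPM in the Fmn2+/+ mice and at 37.6, 40.0, 39.3, 39.7 and 40.0 CPM in the Fmn2-/- mice. All Fmn2-/- mice were below all Fmn2+/+ mice, and the Fmn2-/- mice were tightly grouped (CV 2.57%) while the Fmn2+/+ mice were spread (CV 35.2%). The log2 fold change was -0.92 (SE 0.14, 95% interval -1.23 to -0.62, adjusted p = 0.0288 by edgeR's quasi-likelihood test, Benjamini-Hochberg adjusted). Over all 14665 genes, 129 were called lower (0.880%). In bulk tissue, fewer cells that express a gene and less RNA of it per cell cannot be told apart.

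The call of Pcsk1n at 8 months depended on the setting, while its direction did not. Without Fmn2+/+ replicate 1, the deepest library and the only one on lane 6, its log2 fold change was -0.65 (adjusted p = 0.0880 by edgeR), and leaving out any one of the Fmn2-/- mice also took the adjusted p of Pcsk1n above the threshold (0.0578 to 0.0909). Without Fmn2+/+ replicate 2 it was -1.10 (adjusted p = 0.000368 by edgeR), and without Fmn2+/+ replicate 3 it was -0.97 (adjusted p = 0.0192). A fit with lane as a covariate gave -0.65 (adjusted p = 0.117). Since lane 6 held only Fmn2+/+ replicate 1, that fit amounts to leaving this mouse out and is not a separate setting. A correction for exon length and GC content gave -0.73 (adjusted p = 0.0517). DESeq2 gave -0.91 (adjusted p = 4.79e-06). Counting Fmn2-/- replicates 2 and 3, whose counts were closer than those of the other pairs of that group (chi-square per degree of freedom 1.62, against 3.502 to 6.40), as 1 sample gave -0.94 (adjusted p = 0.0768). In the cross, the 2 runs of 1 and the same mouse gave 2.15 (labelled Fmn2-/-_APP) and 1.72 (labelled Fmn2+/+ APP). Replicates 2 and 3 were thus as close as repeat runs of 1 mouse. The labels give them as 2 mice, and they are counted so elsewhere. Pcsk1n transcripts hold 57.3% G and C, more than 88.1% of the genes tested.

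**Figure D3:**
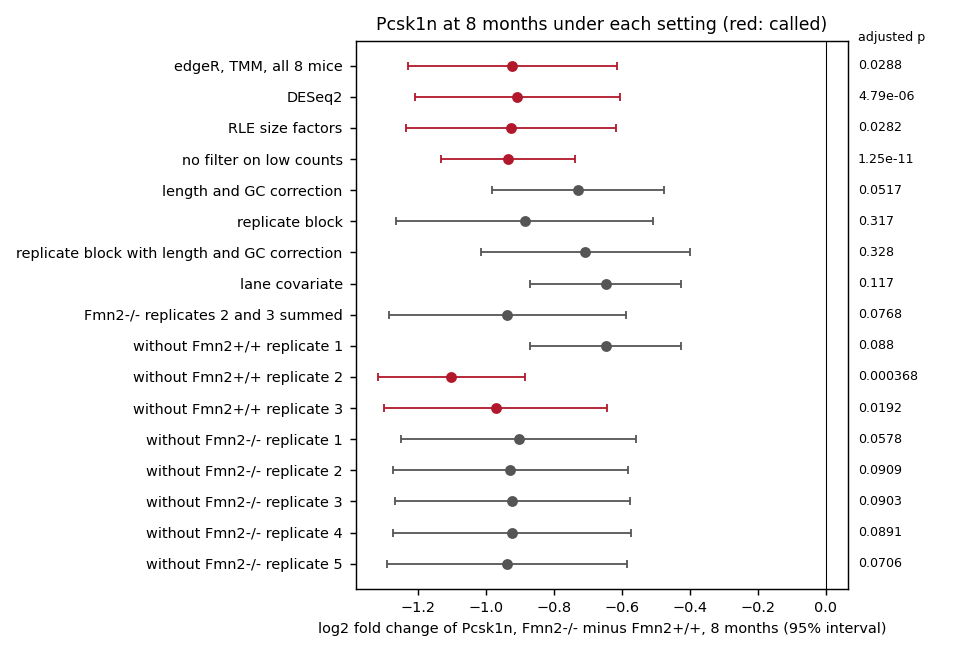
Log2 fold change of Pcsk1n between Fmn2-/- and Fmn2+/+ mice of 8 months (horizontal axis, with 95% intervals) under each setting of the analysis (vertical axis), with the adjusted p printed at the right and called values in red. All values are negative, from -1.10 to -0.65, and the adjusted p lies on both sides of the threshold.

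The other prohormone-like granins were lower in Fmn2-/- mice of 8 months without passing the test. Vgf was 62.3, 44.4 and 45.9 CPM in Fmn2+/+ and 41.8, 37.8, 35.4, 41.9 and 39.0 CPM in Fmn2-/- mice, so that the groups did not overlap. The log2 fold change of Vgf was -0.33 (SE 0.094, adjusted p = 0.0857 by edgeR's quasi-likelihood test). Groups that do not overlap, with the Fmn2-/- mice lower, were found for Pcsk1n and Vgf among the members and for 8.13% of all genes. Chga was 160.4, 110.0 and 131 CPM in Fmn2+/+ and 113, 94.7, 88.3, 100.5 and 105.6 CPM in Fmn2-/- mice, with an overlap of 1 mouse in each group. Its log2 fold change was -0.36 (SE 0.099, adjusted p = 0.0800 by edgeR). Vgf and Chga are GC-rich like Pcsk1n (64.1% and 58.4%), and with the correction for length and GC content their log2 fold changes were -0.02 and -0.17.

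Of the remaining members, Penk was 47.4, 32.3 and 49.3 CPM in Fmn2+/+ and 27.5, 36.8, 31.3, 33.7 and 28.6 CPM in Fmn2-/- mice of 8 months, and Scg5 was 299.7, 226 and 249.6 CPM against 237, 196, 201, 195 and 202 CPM. The log2 fold changes were -0.40 for Penk (SE 0.13, adjusted p = 0.111 by edgeR) and -0.27 for Scg5 (SE 0.086, adjusted p = 0.112 by edgeR). For both genes 1 Fmn2+/+ mouse lay within the range of the Fmn2-/- mice. Chgb (-0.22), Scg2 (-0.11), Scg3 (-0.07) and Pdyn (0.07) had adjusted p-values of 0.227 to 0.697 by edgeR. In all, 8 of the 9 genes were lower, with a median log2 fold change of -0.27, against 48.8% of all genes lower and a median of 0.01. Among the markers of other cells, C1ql2, of granule cells, fell by 0.65 on the log2 scale (adjusted p = 0.0434 by edgeR) as the only one of 8 granule cell markers called, while 5 of the 8 were higher (median 0.09) and their sums overlapped (1176 to 1273 CPM in Fmn2+/+ and 1180 to 1386 CPM in Fmn2-/- mice). Aqp4, of astrocytes, rose by 0.46 (adjusted p = 0.0459 by edgeR) as the only one of 5. Summed interneuron markers were 1030.5 to 1241 CPM in Fmn2+/+ and 1050.3 to 1229 CPM in Fmn2-/- mice, and choroid plexus markers reached 218 CPM and 580.0 CPM. The sums of 3 lists did not overlap between the genotypes: oligodendrocyte markers were 2559 to 3021 CPM in Fmn2+/+ and 1735 to 2474 CPM in Fmn2-/- mice (0 of 5 higher), astrocyte markers 3385 to 3729 CPM and 3942 to 4466 CPM (4 of 5 higher), and microglia markers 238 to 258 CPM and 265 to 300.3 CPM (5 of 5 higher). Their part in the members' values was not tested.

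By the interaction term of the fit of 4 groups, the genotype difference of Pcsk1n differed between the ages. The interaction term, the 8-month difference minus the 3-month difference, was -1.28 on the log2 scale (SE 0.26, 95% interval -1.82 to -0.74, adjusted p = 0.0155 by edgeR's quasi-likelihood test, Benjamini-Hochberg adjusted), and Pcsk1n was the only member called. Over all 17046 genes, 510 were called lower in this term (2.99%). Pcsk1n was called in 21 of 24 other fits, 18 of which each left out 1 of the same mice. The exceptions were the fit without Fmn2+/+ replicate 1 of 8 months (-1.002, adjusted p = 0.110), the correction for length and GC content (-1.01, adjusted p = 0.0757) and a block for the replicate number. Chga (-0.43, adjusted p = 0.0538), Vgf (-0.46, adjusted p = 0.143) and Penk (-0.52, adjusted p = 0.239) were below 0 without passing edgeR's test. Of the 9 genes 8 were below 0, with a median of -0.22, against 52.9% and -0.02 over all genes. The 3-month and 8-month comparisons, this term and the comparisons of ages all use the same 18 mice, so their values are not separate observations. No fit of this term held lane as a covariate, and lane nearly coincided with genotype at 3 months. Fmn2+/+ replicate 1 of 8 months, alone of its age on lane 6, and Fmn2-/- replicate 6 of 3 months were the deepest libraries (43921030 and 42177775 reads). They also held the highest Pcsk1n counts of their groups (106.1 and 100.5 CPM). The part of lane and depth in this term was not tested.

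Between the ages, Pcsk1n moved in opposite directions in the 2 genotypes. In Fmn2+/+ mice it rose from 51.9 ± 9.44 CPM (SD, n = 5) at 3 months to 76.8 ± 27.03 CPM (SD, n = 3) at 8 months, with overlapping groups. The log2 fold change was 0.62 (SE 0.19, adjusted p = 0.0454 by edgeR). Over all 17046 genes, 916 were called higher (5.37%). The rise was called in 9 of 24 other fits. Among the fits that left out a Fmn2+/+ mouse, it was called only without replicate 1 of 3 months or replicate 2 of 8 months. Without Fmn2+/+ replicate 1 of 8 months Pcsk1n had a log2 fold change of 0.34 (adjusted p = 0.368 by edgeR). The calls in the other fits were lost at adjusted p-values of 0.0512 to 0.124. No other member was called in Fmn2+/+ mice. Pdyn (0.36, adjusted p = 0.0647 by edgeR) and Penk (0.50, adjusted p = 0.107 by edgeR) were next.

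In Fmn2-/- mice, Pcsk1n, Chga and Vgf fell with age. Pcsk1n went from 66.8 ± 19.9 to 39.3 ± 1.01 CPM (SD, n = 5 each), Chga from 139 ± 12.7 to 100.5 ± 9.65 CPM and Vgf from 56.8 ± 13.0 to 39.2 ± 2.75 CPM. All 8-month mice were below all 3-month mice for each of the 3 genes. The log2 fold changes were -0.66 for Pcsk1n (SE 0.17, adjusted p = 0.0235), -0.36 for Chga (SE 0.081, adjusted p = 0.00920) and -0.43 for Vgf (SE 0.12, adjusted p = 0.0332), all by edgeR's quasi-likelihood test, Benjamini-Hochberg adjusted. Over all genes, 667 were called lower (3.91%). Groups without overlap, in either direction, were found for these 3 of the 9 genes and for 13.2% of all genes, and in 2042 of all 17046 genes it was the 8-month mice that were lower. Chga was called in 23 of 24 other fits, Pcsk1n in 19 and Vgf in 15. Of these fits, 18 each left out 1 mouse. Fits that left out a Fmn2+/+ mouse, which is in neither group compared here, all kept the 3 calls and add little. With Fmn2-/- replicates 2 and 3 of 8 months summed, Chga and Pcsk1n were called and Vgf was not. With the correction for length and GC content none of them was called, and the log2 fold changes were -0.55 for Pcsk1n, -0.22 for Chga and -0.16 for Vgf. Fmn2-/- replicate 6 of 3 months held the highest count of all 3 genes in its group and was its deepest library (42177775 reads on genes). Without that mouse, the value of Vgf was -0.27 (adjusted p = 0.0812 by edgeR) and that of Pcsk1n -0.45 (adjusted p = 0.0654 by edgeR). The call of Pcsk1n was also lost without Fmn2-/- replicates 1, 3 or 4 of 8 months (0.0515 to 0.0549), and that of Vgf without replicate 5 of 3 months or replicates 2, 3, 4 or 5 of 8 months (0.0551 to 0.0936). Among cell type markers in the same comparison, 5 of 5 of microglia were higher with 1 called (sums 246 to 295 CPM at 3 months and 265 to 300.3 CPM at 8 months), 4 of 5 of astrocytes were higher with 1 called (3625 to 4240.1 CPM and 3942 to 4466 CPM), and 1 of 8 of cortical layers and 0 of 6 of the choroid plexus were higher with none called. Of interneurons 4 of 8 were higher and of striatal projection neurons 3 of 6, each with 1 called higher. Of granule cells 5 of 8 and of pyramidal cells 3 of 7 were higher with none called. For mossy cells it was 1 of 4 and for oligodendrocytes 1 of 5, also with none called. Their part in the members' values was not tested. The ages were sequenced on different lanes and at different depths, and age cannot be told apart from these.

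**Figure D4:**
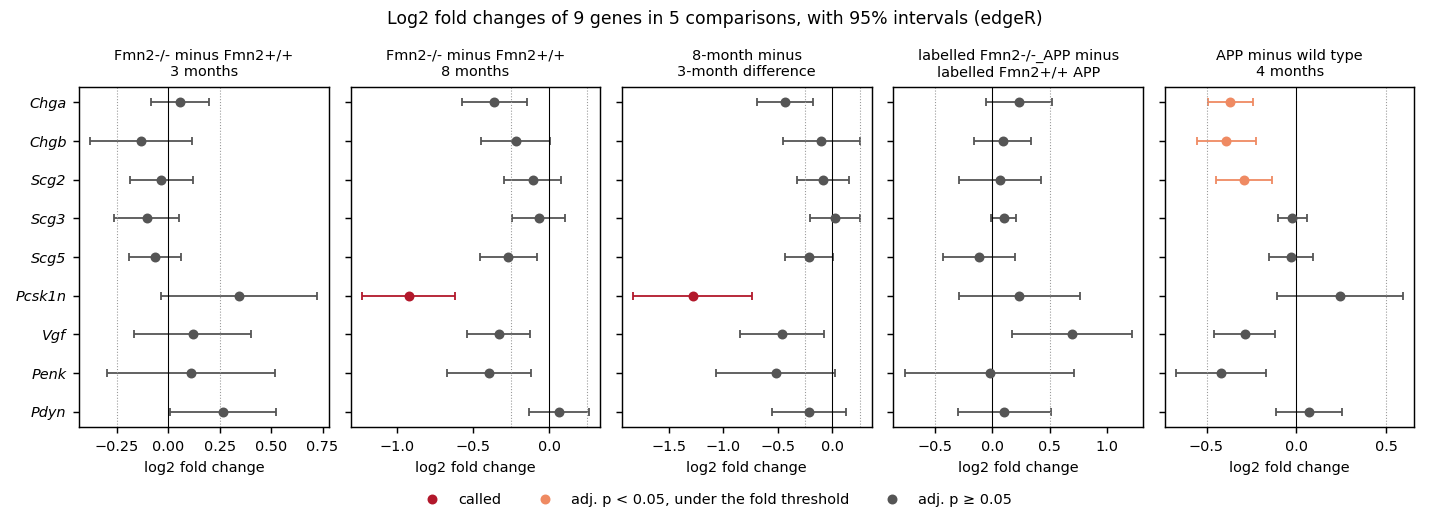
Log2 fold changes of the 9 genes (horizontal axis, with 95% intervals from edgeR) in 5 comparisons, with called genes in red, genes past the adjusted p only in orange and the fold threshold as dotted lines. Pcsk1n is the gene called at 8 months (-0.92) and in the interaction (-1.28), and Chga, Chgb and Scg2 pass the adjusted p but not the fold threshold in APP mice of 4 months.

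The cross asks how the loss of Fmn2 acts on top of amyloid. No member was called between the libraries labelled Fmn2-/-_APP and Fmn2+/+ APP with a log2 fold change of 0.5 or more in either direction by edgeR's quasi-likelihood test, DESeq2 called 0, and 1 member (Vgf) had an unadjusted p under 0.05. Over all 16656 genes, 129 were called (0.774%) and 2772 had an unadjusted p under 0.05 by edgeR. Vgf was 40.9 to 121 CPM (median 44.2) in the 7 mice labelled Fmn2-/-_APP and 13.4 to 50.6 CPM (median 32.9) in the 9 mice labelled Fmn2+/+ APP. These ranges overlap. The log2 fold change of Vgf was 0.69 (SE 0.25, 95% interval 0.17 to 1.21, adjusted p = 0.170 by edgeR). Since the Fmn2 count went against the labels, the higher values of Vgf lie in the libraries with the higher Fmn2 count.

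A few libraries set the extremes of the members in the cross. In the mouse labelled Fmn2-/-_APP replicate 7, Vgf was 121 CPM against 40.9 to 47.7 CPM in the others of its group, Scg2 was 945 against 326 to 469.6 CPM, Chga 161 against 88.4 to 114 CPM and Penk 95.005 against 26.9 to 41.3 CPM. That library also had the highest summed markers of mossy cells (285 CPM), interneurons (1395 CPM) and oligodendrocytes (2781 CPM) of its group. Its summed markers of dentate granule cells (1145 CPM) and pyramidal cells (733 CPM) were the lowest of its group. In the mouse labelled Fmn2+/+ APP replicate 8, Vgf (13.4 CPM), Pcsk1n (11.8 CPM) and Chga (54.7 CPM) were at their lowest, with summed markers of mossy cells at 18.2 CPM against 154 to 263 CPM in the others and of interneurons at 636 CPM against 946 to 1245 CPM. In replicate 9 of that group Penk was highest (118 CPM) and Pdyn lowest (15.9 CPM), with summed astrocyte markers at 5960 CPM against 3316 to 5115 CPM. Choroid plexus markers summed to 9273 and 6056 CPM in replicates 4 and 5 of that group and to at most 117.9 CPM in the mice labelled Fmn2-/-_APP. Lanes differed too: replicates 8 and 9 labelled Fmn2+/+ APP were sequenced on lane 7 alone, and replicate 7 of each group on lanes 4 and 7. All other mice of the cross were on lanes 5 or 6. With lane as a covariate, 0 members were called. The part of these cell types in the members' values, and that of lane in these extremes, was not tested. Without replicates 7 of the first group and 8 and 9 of the other, a setting chosen after seeing the data, Vgf had a log2 fold change of 0.34 (SE 0.097, adjusted p = 0.0689 by edgeR), Pcsk1n -0.06, Scg2 -0.17, Chga 0.09 and Penk 0.05. Without replicate 7 alone, Vgf was at 0.36 (adjusted p = 0.353 by edgeR).

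**Figure D5:**
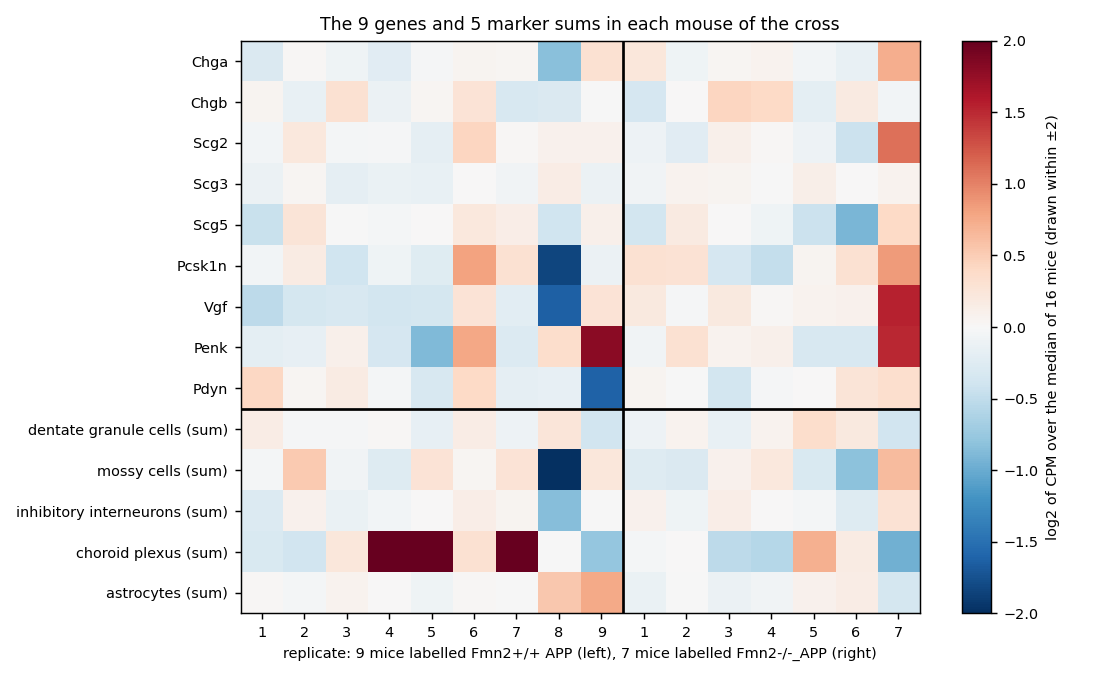
Each of the 9 genes and summed marker lists in the 16 mice of the cross (columns, by label and replicate), as log2 of CPM over the median of the 16 mice, with colours drawn within ±2. Replicate 7 of the mice labelled Fmn2-/-_APP is high for Scg2, Vgf, Chga and Penk (Vgf 121 CPM), and replicate 8 of those labelled Fmn2+/+ APP is low for Vgf, Pcsk1n, Chga and the mossy cell markers.

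No other member passed the test in the cross. Chga was 88.4 to 161 CPM (median 99.9) in the mice labelled Fmn2-/-_APP and 54.7 to 120.5 CPM (median 95.8) in those labelled Fmn2+/+ APP, a log2 fold change of 0.23 (SE 0.14, adjusted p = 0.423 by edgeR). Pcsk1n was 30.2 to 75.9 CPM (median 51.4) and 11.8 to 73.5 CPM (median 39.7), a log2 fold change of 0.24 (SE 0.25, adjusted p = 0.695 by edgeR). Scg3 (0.10), Chgb (0.09), Pdyn (0.10), Scg2 (0.07), Penk (-0.02) and Scg5 (-0.12) had adjusted p-values of 0.345 to 0.984 by edgeR. Their intervals reach at most 0.76 in either direction, the widest being that of Penk (-0.76 to 0.71). The median of the 9 genes was 0.10, with 2 of them lower, against 0.01 and 48.3% over all genes.

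In APP mice of 4 months, which deposit amyloid but have intact Fmn2, Chga, Chgb and Scg2 were lower than in wild-type mice at an adjusted p under 0.05, each by less than the fold threshold of 0.5. No member was called therefore, by edgeR or by DESeq2, and 5 had an unadjusted p under 0.05. Over all 16733 genes, 392 were called (2.34%) and 146 (0.873%) were lower at an adjusted p under 0.05 at any fold. An unadjusted p under 0.05 by edgeR was found for 2396 of the 16733. Chga was 128 to 161 CPM (median 143) in 6 wild-type mice and 100.6 to 123 CPM (median 113) in 6 APP mice. All APP mice were below all wild-type mice, as for 0.717% of all genes. The log2 fold change of Chga was -0.37 (SE 0.059, 95% interval -0.49 to -0.24, adjusted p = 0.000604 by edgeR's quasi-likelihood test, Benjamini-Hochberg adjusted).

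Chgb was 567.9 to 733 CPM (median 636) in wild-type and 415 to 599.9 CPM (median 494) in APP mice, and Scg2 was 191 to 236 CPM (median 211) and 147 to 204 CPM (median 171). For both genes the ranges overlapped. The log2 fold changes were -0.39 for Chgb (SE 0.078, adjusted p = 0.00499 by edgeR) and -0.29 for Scg2 (SE 0.074, adjusted p = 0.0306 by edgeR). Chga and Chgb kept an adjusted p under 0.05 without any one mouse (at most 0.00243 for Chga and 0.0156 for Chgb), while that of Scg2 reached 0.0844 without APP replicate 4 and also passed 0.05 without APP replicates 2 or 5 or wild-type replicates 2, 3, 4 or 5. Vgf was 155 to 202 CPM (median 178) and 125 to 168 CPM (median 146), with a log2 fold change of -0.29 (SE 0.080, adjusted p = 0.0542 by edgeR). Penk was 33.6 to 55.1 CPM (median 37.1) and 26.1 to 38.6 CPM (median 28.5), with a log2 fold change of -0.42 (SE 0.12, adjusted p = 0.0604 by edgeR). With DESeq2 the adjusted p was 0.0171 for Vgf and 0.0136 for Penk, and without APP replicate 5 Penk was called (-0.50, adjusted p = 0.0169 by edgeR).

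The vesicle-membrane and convertase-binding granins did not pass the test in APP mice. Scg3 was 314 to 351 CPM (median 331) in wild-type and 309 to 335 CPM (median 328) in APP mice, and Scg5 was 174 to 208 CPM (median 192) and 171 to 219 CPM (median 187). The log2 fold changes were -0.02 for Scg3 (95% interval -0.10 to 0.06) and -0.03 for Scg5 (95% interval -0.15 to 0.09). Pcsk1n was 52.5 to 80.5 CPM (median 61.4) in wild-type and 51.0 to 115 CPM (median 70.8) in APP mice, with a log2 fold change of 0.24 (SE 0.17, adjusted p = 0.574 by edgeR), and Pdyn had one of 0.07 (SE 0.087). Of the 9 genes 7 were lower, with a median of -0.29, against 50.2% of all genes and a median of 0.00. All APP mice were sequenced on lane 7 and all wild-type mice on lane 5, so lane and genotype cannot be told apart. All 5 microglia markers rose at an adjusted p under 0.05 by edgeR, their sum being 385 to 508 CPM in APP and 249 to 274 CPM in wild-type mice. Gfap, of reactive astrocytes, rose by 2.10 on the log2 scale. Of the 5 astrocyte markers, Gfap among them, 4 were higher and 1 was called, with a median log2 fold change of 0.03. Their sums overlapped, with 2821 to 3541 CPM in APP and 2860 to 3498 CPM in wild-type mice. Summed interneuron markers were 1132 to 1250.4 CPM in APP and 1181 to 1341 CPM in wild-type mice. Oligodendrocyte markers summed to 1216 to 1900.2 CPM in APP and 1991 to 5730.1 CPM in wild-type mice without overlap, with 0 of 5 higher, a median log2 fold change of -0.79 and 1 called lower. The part of these cells in the members' values was not tested.

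Few of the enzymes that cleave and trim the members' products were called. Of 13 prohormone processing genes tested, none was called at 3 or 8 months, in the interaction, in the cross or in APP mice by edgeR. Only Prep, a peptidase that cuts behind proline, was called with age, by -0.33 in Fmn2+/+ mice (adjusted p = 0.0131 by edgeR) and by -0.30 in Fmn2-/- mice (adjusted p = 0.0104 by edgeR). In APP mice Pcsk1, which encodes PC1/3, the convertase that proSAAS inhibits, was 33.9 ± 4.52 CPM (SD, n = 6) in wild-type and 27.7 ± 2.302 CPM (SD, n = 6) in APP mice, a log2 fold change of -0.30 (adjusted p = 0.04999 by edgeR). Ctsl, a lysosomal and vesicular protease, was higher by 0.50 (adjusted p = 1.50e-05 by edgeR), just under the fold threshold. Ctsl is also expressed by microglia, whose markers rose in the same mice.

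Most other neuropeptide precursors had lower mean levels in Fmn2-/- mice of 8 months, but few passed the test. Of 19 tested, 1 was called, Nucb2, the precursor of nesfatin-1, which stood at 25.9 ± 2.41 CPM (SD, n = 3) in Fmn2+/+ and 18.9 ± 1.25 CPM (SD, n = 5) in Fmn2-/- mice (log2 fold change -0.40, adjusted p = 0.0467 by edgeR). Only 3 of the 19 were higher, and their median was -0.31, against 0.01 over all genes. Cck, the cholecystokinin precursor, and Pnoc, the precursor of the opioid-like peptide nociceptin, were called in the interaction, with -0.57 (adjusted p = 0.0257 by edgeR) for Cck and -0.79 (adjusted p = 0.0296 by edgeR) for Pnoc. Both also fell with age in Fmn2-/- mice, Cck from 274 ± 20.01 to 194 ± 19.3 CPM (log2 fold change -0.39, adjusted p = 0.00915 by edgeR) and Pnoc from 11.7 ± 1.35 to 8.05 ± 1.21 CPM (log2 fold change -0.42, adjusted p = 0.0392 by edgeR). In Fmn2+/+ mice, Nmb, which encodes neuromedin B, was the only one called with age (log2 fold change 1.03, adjusted p = 0.00320 by edgeR). No precursor of this list was called in the cross, where 15 of 21 were higher in the libraries labelled Fmn2-/-_APP, or in APP mice of 4 months. There Npy (-0.30, adjusted p = 0.0438) and Sst (-0.20, adjusted p = 0.0237), precursors made by interneurons, were lower at an adjusted p under 0.05 by edgeR.

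Genes for the formation and release of dense-core vesicles were not called between genotypes. None of 28 was called between genotypes at 3 or 8 months or in the interaction by edgeR, and 18 of 28 were higher in Fmn2-/- mice of 8 months (median 0.09). With age, 3 of the 28 were called lower in Fmn2+/+ mice, among them Ptprn2, a transmembrane protein of the vesicle, and the calcium sensor Syt10, with log2 fold changes of -0.60 (adjusted p = 0.0254) and -0.91 (adjusted p = 0.0436 by edgeR). Rab3a, a small GTPase of secretory vesicles, fell by 0.27 in Fmn2-/- mice (adjusted p = 0.0137 by edgeR). Rab27a rose by 0.52 in APP mice (adjusted p = 0.00297 by edgeR), from a low level of 3.79 ± 0.386 to 5.46 ± 0.515 CPM (SD, n = 6 each).

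Few receptors for the peptides were called. In APP mice C3ar1, a complement receptor that also binds the VGF peptide TLQP-21 and is expressed by microglia, rose from 2.304 ± 0.516 to 6.69 ± 1.15 CPM (SD, n = 6 each; log2 fold change 1.53, adjusted p = 2.91e-06 by edgeR), together with the microglia markers. Npy2r rose by 0.53 (adjusted p = 0.0473 by edgeR). In the cross Crhr2, a receptor of urocortins, was lower in the libraries labelled Fmn2-/-_APP by edgeR's test (log2 fold change -0.88, adjusted p = 0.0429). Oprm1, the mu receptor on which enkephalins act, fell with age in Fmn2+/+ mice from 1.25 ± 0.367 (SD, n = 5) to 0.344 ± 0.109 CPM (SD, n = 3; log2 fold change -1.81, adjusted p = 0.0323 by edgeR), a change at very low counts. No receptor of 24 was called between genotypes at either age by edgeR.

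Activity-regulated genes are of interest beside Vgf, Scg2 and Penk, which neuronal activity and CREB induce. None of 12 was called between Fmn2-/- and Fmn2+/+ mice at 3 or 8 months by edgeR. In Fmn2+/+ mice 5 fell with age: Fos (log2 fold change -2.01, adjusted p = 0.0366), Npas4 (-1.73, adjusted p = 0.0247), Egr1 (-1.45, adjusted p = 0.0129), Arc (-1.35, adjusted p = 0.0182) and Nr4a1 (-1.27, adjusted p = 0.0229, all by edgeR). In Fmn2-/- mice Arc fell by 1.06 (adjusted p = 0.0257) and Junb by 0.90 (adjusted p = 0.0176 by edgeR). Vgf, Scg2 and Penk did not pass the test in Fmn2+/+ mice over the same interval (0.03, 0.04 and 0.50). In Fmn2-/- mice Vgf was called lower with age (-0.43), while Scg2 (-0.04) and Penk (-0.02) were not called. In APP mice of 4 months all 12 had a log2 fold change below 0. Nptx2, a secreted pentraxin of excitatory synapses, was called (-0.57, adjusted p = 0.00178 by edgeR). Summed levels of the list lay between 553 and 1117 CPM in APP and 701 and 2424 CPM in wild-type mice. Vgf (-0.29), Scg2 (-0.29) and Penk (-0.42) were also below 0 in these APP mice, without being called. A link between these members and the activity-regulated genes was not tested.

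Within groups, the members did not vary as 1 block. The likeness of genes was measured as Pearson's r of the deviations of log2 CPM from the group mean over the 46 mice, among 10195 genes with a mean of at least 10 CPM. These points share depth and tissue composition, and r is given as a description. Chga and Vgf were most alike (r = 0.88), and Vgf was first in the order for Chga. Pcsk1n and Vgf (0.78) and Pcsk1n and Chga (0.67) followed, while Scg3 and Chgb went in opposite directions (-0.41). Without the 3 libraries of the cross named above, over 43 mice, r was 0.68 for Chga and Vgf, 0.73 for Pcsk1n and Vgf, 0.48 for Pcsk1n and Chga and -0.36 for Scg3 and Chgb. Penk and Pdyn were at -0.27 over all mice and at 0.20 without these libraries.

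The genes most like each member came from outside the family in nearly all cases. For Vgf they were Ache, the acetylcholine-degrading enzyme (0.91), Slc32a1, the vesicular GABA transporter of interneurons (0.91), and Dner (0.89), and for Chga they were Vgf, Ache (0.86) and Slc32a1 (0.86). Without the 3 libraries these values were 0.72, 0.75 and 0.67 for Vgf with Ache, Slc32a1 and Dner. For Pcsk1n they were Ccdc85b (0.89), Tpgs1 (0.89) and Ckb (0.88), which stayed at 0.87, 0.85 and 0.83. Chgb was most like Neurod6 (0.71), Fam19a1 (0.71) and Rab15 (0.69), and Scg2 most like AW551984 (0.85), Ahi1 (0.83) and Tmem130 (0.81). Scg3 was most like Asrgl1 (0.73), Sparcl1 (0.70) and Rgs20 (0.69), and Scg5 most like Tk2 (0.88), Araf (0.87) and Ralyl (0.87). Pdyn was most like Spon1 (0.81), Calb1, the calbindin of granule cells (0.79), and Vwa3a (0.78), and Penk most like Tmem176a (0.73), Lrig1 (0.71) and Itih3 (0.70). The values of Penk with Tmem176a and Itih3 were 0.43 and 0.45 without the 3 libraries. Those of Scg2 with AW551984, Ahi1 and Tmem130 were then 0.70, 0.64 and 0.58. Pdyn was then at 0.62, 0.70 and 0.55 with Spon1, Calb1 and Vwa3a, and Chga at 0.67 and 0.66 with Ache and Slc32a1.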

How the data were processed

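RNA of 48 libraries from 46 mice was measured, since replicate 7 of each group of the cross was sequenced in 2 runs, whose counts were summed. The authors mapped reads to mm10 with STAR and deposited raw counts per gene from HTSeq (mode intersection-non-empty), with no rows that name no gene. Per the labels, the library kit does not mark strand. Groups were taken from the labels also where the Fmn2 count goes against them.

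The counts were tested with edgeR 4.0.16 (R 4.3.3) by the quasi-likelihood test with TMM scaling, after filterByExpr (minimum count 10, minimum total 15), and Benjamini-Hochberg adjustment over all genes tested. A gene was called where the adjusted p was under 0.05 and the log2 fold change in either direction reached 0.25 (Fmn2 comparisons, interaction and ages) or 0.5 (cross and 4-month APP mice). The 3-month, 8-month, cross and 4-month fits each used their 2 groups, and the interaction and age terms came from 1 fit of 4 groups. Over 7 comparisons this gives 63 tests of the 9 genes. Intervals are 95% intervals. Exon lengths came from GENCODE M21, of the same build. Correlations used log2 CPM with a prior count of 2, computed with pandas 2.3.3, NumPy 2.4.6 and SciPy 1.17.1, and plots were drawn with matplotlib 3.10.9.

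Alternatives were DESeq2 1.42.0, DESeq2's size factors in edgeR, no filter on low counts, a correction for exon length and GC content (splines with 5 degrees of freedom), lane or the replicate number as a block, similar libraries summed, and each mouse left out. The scripts were tested on simulated data. The genes named are the 9 members in each comparison, Fmn2 as a check of the labels, genes of the pathway lists that were called (the rest as counts, and 1 called gene of the dense-core vesicle list is not reported here), and for each member the 3 genes with the highest r. Genes past the adjusted p only, and the marker genes, were added after their values were seen. The members and lists were chosen with earlier results of these data known. The p-values measure the spread between these mice only. The total of reads on genes was 6818809 to 43921030 per mouse, and 8-month libraries other than 1 were the shallowest.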

Additional observations from a re-analysis of the deposited data

Results flagged for a closer look

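Each of the 9 genes was examined in the groups of 4 to 10 mice for a single mouse far from the others. Of these 63 tests, 8 flagged such a mouse. The tests share mice and several flags fall on the same mouse, so a rate of about 1 in 20 for independent tests is no yardstick. In the mouse labelled Fmn2-/-_APP replicate 7, Scg2 (945 CPM, others at most 469.6), Chga (161 CPM, others at most 114), Vgf (121 CPM, others at most 47.7) and Penk (95.005 CPM, others at most 41.3) were the highest of their group. In the mouse labelled Fmn2+/+ APP replicate 9, Penk was 118 CPM, against at most 57.2 CPM in the others. Pcsk1n was 68.4 CPM in 3-month Fmn2+/+ replicate 1, above 45.1 to 50.1 CPM in the other 4. In 8-month Fmn2-/- replicate 1, Pcsk1n was 37.6 CPM, against 39.3 to 40.0 CPM in the others, a small gap in a tight group, and Scg5 was 237 CPM, against 195 to 202 CPM.

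The genotype difference of Pcsk1n differed between 8 and 3 months by -1.28 on the log2 scale, as tested by the interaction term of the edgeR fit (adjusted p = 0.0155, 95% interval -1.82 to -0.74). At 8 months 5 of 5 Fmn2-/- mice were below each Fmn2+/+ mouse, and at 3 months the groups overlapped. Lane and depth also differed between these groups, and their part was not tested.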

How the results depend on the processing

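Of 900 log2 fold changes of members with 1 mouse left out, 834 kept direction and side of the threshold, 29 lost and 14 gained a call and 23 reversed. Of 432 under other settings, 383 kept both, 15 lost and 8 gained a call and 26 reversed. Of 144 group means under other scalings, 138 moved by less than 1 SD. All reversed values belong to members that were not called. The causes were not tested.

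Genes called at 3 months (5) numbered 90 with DESeq2, 3 with DESeq2's size factors, 14 without the filter, 3 with the length and GC correction, 2 with the replicate number as a block with or without that correction, 3 with lane, and 3 to 49 with 1 mouse left out. At 8 months (166) they numbered 697 with DESeq2, 1124 without the filter, 9 with the correction, 4 with the block, 6 with the block and the correction, 3 with lane, 5 with replicates 2 and 3 summed, and 4 (without Fmn2+/+ replicate 1) to 3087 (without Fmn2+/+ replicate 2). In the interaction (635) they numbered 1414 with DESeq2, 399 without the filter, 31 with the correction, 0 with the block, 227 with replicates summed and 8 to 2791 with 1 mouse left out. With age they numbered 1015 (correction), 977 (only the 2 groups) and 469 to 2994 (1 mouse left out) in Fmn2+/+ mice (1570), and 570 (correction) and 746 to 1239 (1 mouse left out) in Fmn2-/- mice (1097). In the cross (129) they numbered 357 with DESeq2 and 73 to 171 with 1 mouse left out, and in 4-month APP mice (392) 365 to 418.

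Members called at 8 months (1) numbered 2 with DESeq2, 4 without the filter, 0 with the correction, the block, both together, lane or replicates summed, and 0 to 5 with 1 mouse left out. Over all genes tested, 697 of 11958 were called with DESeq2 and 1124 of 28588 without the filter. In the fit with 5 members, without Fmn2+/+ replicate 2, 3087 of 15021 genes were called. In the interaction the members called (1) numbered 2 with DESeq2, where 1414 of 12218 genes were called, 0 with the correction or the block, and 0 to 2. In Fmn2+/+ mice with age (1) they numbered 2 with DESeq2, 0 with the correction, replicates summed or only the 2 groups, and 0 to 3. With DESeq2, 1978 of 14088 genes were called. In the fit with 3 members, without Fmn2+/+ replicate 2 of 8 months, 2994 of 17545 genes were called. In Fmn2-/- mice with age (3) the members called numbered 0 with the correction and 1 to 4, and in 4-month APP mice (0) 0 to 1. In Fmn2-/- mice, the fits with 4 members and 1 mouse left out called 1053 of 16819 and 1065 of 16847 genes.

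The replicate numbers did not pair the mice: the mean correlation of same-numbered mice was 0.0522 at 3 months, -0.0357 at 8 months, 0.0693 in the cross and 0.00496 at 4 months, and 1 of 4, 0 of 3, 2 of 7 and 2 of 6 mice correlated best with their own number. With the replicate block Pcsk1n was -0.89 at 8 months (adjusted p = 0.317 by edgeR) and -0.998 in the interaction (adjusted p = 0.381), Chga -0.37 in 4-month APP mice (adjusted p = 0.00224).

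Reversed values at 3 months were Scg2 0.014 (block), 0.0079 (block and correction) and 0.0016 (lane), Chga -0.029 (correction), -0.055 (block and correction) and -0.018 (lane), and Vgf -0.0027, -0.0073, -0.061 and -0.14 (correction, block, both, lane). Pdyn was -0.0060 with the block at 8 months. In the interaction Scg3 was -0.039 (block) and Chgb 0.023 (correction) and 0.11 (block). With age in Fmn2+/+ mice the correction gave Scg5 -0.031, Chga -0.069 and Vgf -0.13. In the cross Penk was 0.33 (block), 0.36 (block and correction), 0.13 (lane) and 0.050 (without the 3 libraries), Pdyn -0.024, -0.014 and -0.086 (block, both, without the 3 libraries), Pcsk1n -0.057 and Scg2 -0.17 (without the 3 libraries). With 1 mouse left out, values on both sides of 0 were those of Scg2 (-0.079 to 0.013), Vgf (-0.035 to 0.18) and Penk (-0.046 to 0.22) at 3 months, Scg3 (-0.0097 to 0.10) in the interaction, Scg5 (-0.032 to 0.11), Chga (-0.047 to 0.16) and Vgf (-0.11 to 0.092) with age in Fmn2+/+ mice, Scg2 (-0.10 to 0.0038) and Penk (-0.10 to 0.13) with age in Fmn2-/- mice, and Scg2 (-0.19 to 0.14), Penk (-0.38 to 0.33) and Pdyn (-0.0062 to 0.18) in the cross.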
